A study of Mus musculus with 38 samples.

Results

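Expression of 10 genes of the histone H3 lysine 4 (H3K4) methylation machinery was followed across tumor progression and chemotherapy in the MMTV-PyMT mouse model of breast cancer: the methyltransferases Mll1, Kmt2b, Mll3, Setd1a, Setd1b, Mll5 and Ash1l, and their partners Wdr5, Ash2l and Men1. The members were all probes, controls aside, whose gene name on the array was one of these 10 genes or a synonym, which gave 25 of 41174 probes. Kmt2b was carried on the array as Wbp7, and 2 of the 3 Setd1a probes carried the older name Nsccn1, which RefSeq lists as a synonym of Setd1a. Mll1, Mll3 and Mll5 are Kmt2a, Kmt2c and Kmt2e in current nomenclature.

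All tumors came from hyperplasias of FVB/n mice with a pair of transgenes. The mouse mammary tumor virus promoter drives the polyoma middle T oncogene in them, and an actin promoter drives GFP. The hyperplasias were grafted into mammary fat pads, cleared beforehand, of FVB/n hosts, and GFP-positive cells were sorted before RNA extraction, so that all groups share the oncogene, the reporter and the sort. The actin promoter is active in nearly every cell type, and GFP therefore marks donor cells rather than epithelial cells. The hosts were wild-type, so cells of the host, those of its lung included, carry no GFP. The progression experiment compared 4 stages: adenoma (5 samples), carcinoma (6), disseminated cells (6) and metastases (5). Disseminated cells were sorted from the lungs of tumor-bearing mice, with the lungs of several mice pooled per sample, and metastases from lungs collected after the primary tumor had been removed. The chemotherapy experiment held 6 untreated tumors, 6 residual tumors after the first dose and 4 relapsed tumors after the fourth dose of docetaxel, doxorubicin and cyclophosphamide, begun 2 months after transplantation. The labels call the last group resistant, and it was taken for the relapsed tumors of the methods as the one remaining treated group. The age of the hosts at collection is not given in the labels used here. Each array compared the Cy5-labeled sample with a Cy3-labeled Universal mouse reference, a pool of mouse RNA. Every value below is a normalized log2 ratio of sample to this reference or a difference of such ratios, and ratios of different probes cannot be ranked against each other. A probe was counted as past the test at a Benjamini-Hochberg adjusted p below 0.05 in limma over all 41174 probes.

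Methylation of H3K4 marks active chromatin, with trimethylation at promoters and monomethylation at enhancers. Mll1 and Kmt2b, Mll3, and Setd1a and Setd1b are the catalytic subunits of related complexes, often called COMPASS, which share a core that includes Wdr5 and Ash2l. Menin, the product of Men1, joins the Mll1 and Kmt2b complexes and tethers them to chromatin. Mll5 carries a SET domain but has little or no methyltransferase activity of its own, and Ash1l, a Trithorax-group protein, is known above all for methylation of another lysine of the same histone. In breast cancer, MLL3 is among the recurrently mutated chromatin genes.

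The probes sample different parts of long genes, and their places matter for what follows. In the array files' own coordinates of build mm7, the single Mll1 probe lies at chr9:44739072-44739131 on the minus strand. The brightest Mll3 probe lies at chr5:24340067-24340126 on the minus strand, 27499 bases upstream of the 3′-most Mll3 probe at chr5:24312568-24312627. The 2 Setd1b probes, at chr5:122397788-122397847 and chr5:122397818-122397877, overlap by 30 bases and are close to a repeat measurement. The brightest probes of Kmt2b (chr7:27510159-27510218, minus strand), Setd1a (chr7:123896585-123896644), Mll5 (chr5:22519464-22522941) and Ash1l (chr3:89192158-89192217) are the 3′-most probe of their gene, except for Mll5. The Mll5 probe spans more genome than its 60 bases and so crosses at least 1 intron. Wdr5, Ash2l and Men1 were read at chr2:27543500-27543559, chr8:24573369-24573428 (minus strand) and chr19:6235174-6235233. An annotation of mm7 was not used here, so exon labels are not given.

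The RefSeq promoter table (GRCm38.p6, a different build from that of the probes) holds 5 of the 10 genes. The 250 bases upstream of the start are shown for 3 methyltransferase genes that were lower in metastases than in adenomas (Mll1, Mll3 and Setd1a) and for Wdr5, which was at the same mean level. Capitals mark the GC box GGGCGG on either strand, and neighboring boxes can overlap.
Mll1 (Kmt2a, chr9:44881290-44881539, minus strand): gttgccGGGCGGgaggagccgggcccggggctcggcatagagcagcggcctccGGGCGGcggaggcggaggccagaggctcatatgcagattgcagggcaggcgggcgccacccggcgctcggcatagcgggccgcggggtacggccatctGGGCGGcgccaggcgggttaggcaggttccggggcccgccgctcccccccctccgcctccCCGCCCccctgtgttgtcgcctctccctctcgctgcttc
Mll3 (Kmt2c, chr5:25498784-25499033, minus strand): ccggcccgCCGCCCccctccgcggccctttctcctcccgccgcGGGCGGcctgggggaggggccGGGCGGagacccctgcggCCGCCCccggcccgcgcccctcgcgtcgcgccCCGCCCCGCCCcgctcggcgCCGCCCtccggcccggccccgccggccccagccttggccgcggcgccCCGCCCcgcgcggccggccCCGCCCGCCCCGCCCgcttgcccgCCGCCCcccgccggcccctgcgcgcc
Setd1a (chr7:127777139-127777388, plus strand): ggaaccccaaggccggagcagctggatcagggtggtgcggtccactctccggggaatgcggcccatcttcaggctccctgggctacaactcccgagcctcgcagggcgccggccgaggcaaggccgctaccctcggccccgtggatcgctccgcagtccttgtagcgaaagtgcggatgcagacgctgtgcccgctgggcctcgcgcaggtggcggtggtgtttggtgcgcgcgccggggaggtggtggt
Wdr5 (chr2:27514897-27515146, plus strand): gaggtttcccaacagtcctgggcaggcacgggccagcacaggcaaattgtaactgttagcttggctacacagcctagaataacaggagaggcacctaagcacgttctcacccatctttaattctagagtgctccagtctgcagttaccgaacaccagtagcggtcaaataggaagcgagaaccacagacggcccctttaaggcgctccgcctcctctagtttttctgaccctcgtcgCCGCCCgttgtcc
These windows held 29, 48, 25 and 12 CpG dinucleotides, against a median of 6 over 32817 mouse promoter windows of the same length. The Mll3 window had more CpG than 99.8% of them, the Mll1 window more than 93.2%, the Setd1a window more than 89.3% and the Wdr5 window more than 66.5%. The GC box was present in the windows of Mll1, Mll3, Wdr5 and Men1 and in 32.7% of all windows. The CCAAT box was found only in the Men1 windows among the 5 genes and in 33.8% of all windows. The letters CCGGAAGT (ETS family), CACGTG (E-box), TGACGTCA (CRE) and TTTCGCGC (E2F), searched on both strands, were in none of these genes' windows and in 2.88%, 6.02%, 1.55% and 0.256% of all windows.

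Before the results, 3 arrays need naming. Carcinoma replicate 6 correlated with its group at a median of 0.768 over all probes, where the other 5 lay at 0.940 or above, and a mean log2 ratio of 5.04 over 12 macrophage genes, where the others lay between −0.83 and 0.44. Disseminated replicate 6 had the lowest correlation with its group, 0.685. Metastases replicate 4 had the lowest level of 12 mammary epithelial genes in its group, 0.46 against 3.37 to 4.61, and the highest macrophage level, 5.83. The sample channel was well above background on 47.6 to 78.3% of probes in the progression experiment, with 2 adenomas lowest, and on 49.9 to 63.6% in the chemotherapy experiment. Progression RNA went through 2 rounds of amplification and chemotherapy RNA through a single round. Carcinomas and metastases shared slides 6 to 8 and a scan day, whereas adenomas and disseminated cells shared slides 9 to 11 and another day. Metastases against adenomas and against disseminated cells, and carcinomas against either, therefore cannot be told apart from slide and scan day.

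Metastases had the lowest mean level of 6 of the 7 methyltransferase genes at the brightest probe. Against adenomas, the brightest probes of Mll1, Kmt2b, Mll3, Setd1a, Setd1b and Mll5 were all lower, by 2.01 to 4.67-fold, and those of Wdr5, Ash2l and Men1 did not pass the test. Over all 25 probes, 11 were lower and 1 higher, beside a background of 14.4% of all probes lower and 13.1% higher. The median log2 change was −0.44 over the 20 methyltransferase probes and 0.04 over the 5 probes of Wdr5, Ash2l and Men1, with 0.02 over all probes of the array. One of the 11 lower probes, the 5′-most of Mll3, was well above background on 0 of the 22 progression arrays, so no fold is given for it. These are bulk RNA values, in which fewer cells of a type and less RNA per cell cannot be told apart.

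Mll1, the founding member of the family, had log2 ratios of 0.86, 0.91, 1.75, 1.21 and 0.81 in the 5 adenomas and of −0.64, 0.18, −1.19, −0.62 and −0.15 in the 5 metastases. All adenomas lay above all metastases, and the difference was −1.59 ± 0.35 (SE), a 3.01-fold fall (adjusted p = 0.00232). Kmt2b, its closest relative, read 1.30, 1.29, 1.52, 1.0001 and 0.92 in adenomas and −0.13, 0.09, −0.32, 0.46 and 0.20 in metastases. These values do not overlap either (log2 change −1.14 ± 0.26, adjusted p = 0.00271). The largest difference among these genes was that of Mll3, an enhancer methyltransferase. Its brightest probe read −0.38, −0.23, −0.37, 0.01 and −0.41 in adenomas and −2.42, −2.62, −3.01, −2.54 and −1.91 in metastases (log2 change −2.22 ± 0.35, 4.67-fold, adjusted p = 0.00015). The highest metastasis lay well below the lowest adenoma.

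Setd1a, catalytic subunit of a complex that trimethylates promoters, was tightly grouped in adenomas at 0.56, 0.74, 0.83, 0.63 and 0.64. In metastases it read −0.42, −0.54, −0.96, −0.93 and 0.55. Metastases replicate 5 lay just below the lowest adenoma, and the other 4 were below 0 (log2 change −1.14 ± 0.27, adjusted p = 0.00442). Setd1b, its paralog, read 0.46, 1.25, 1.33, 0.46 and 1.06 in adenomas and −0.67, −0.56, −0.68, 0.06 and −0.07 in metastases, again without overlap (log2 change −1.29 ± 0.29, adjusted p = 0.00292). The second, overlapping Setd1b probe gave −1.35 ± 0.33 (adjusted p = 0.00502). Mll5 read −1.83, −1.71, −0.89, −1.72 and −1.86 in adenomas and −2.77, −2.39, −2.63, −2.78 and −2.47 in metastases, a difference of −1.005 ± 0.29 (adjusted p = 0.0141). Ash1l stood apart, with a value of 0.53 ± 0.35 at its brightest probe that did not pass the test (adjusted p = 0.286) and 2 dimmer probes that were lower.

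**Figure D1:**
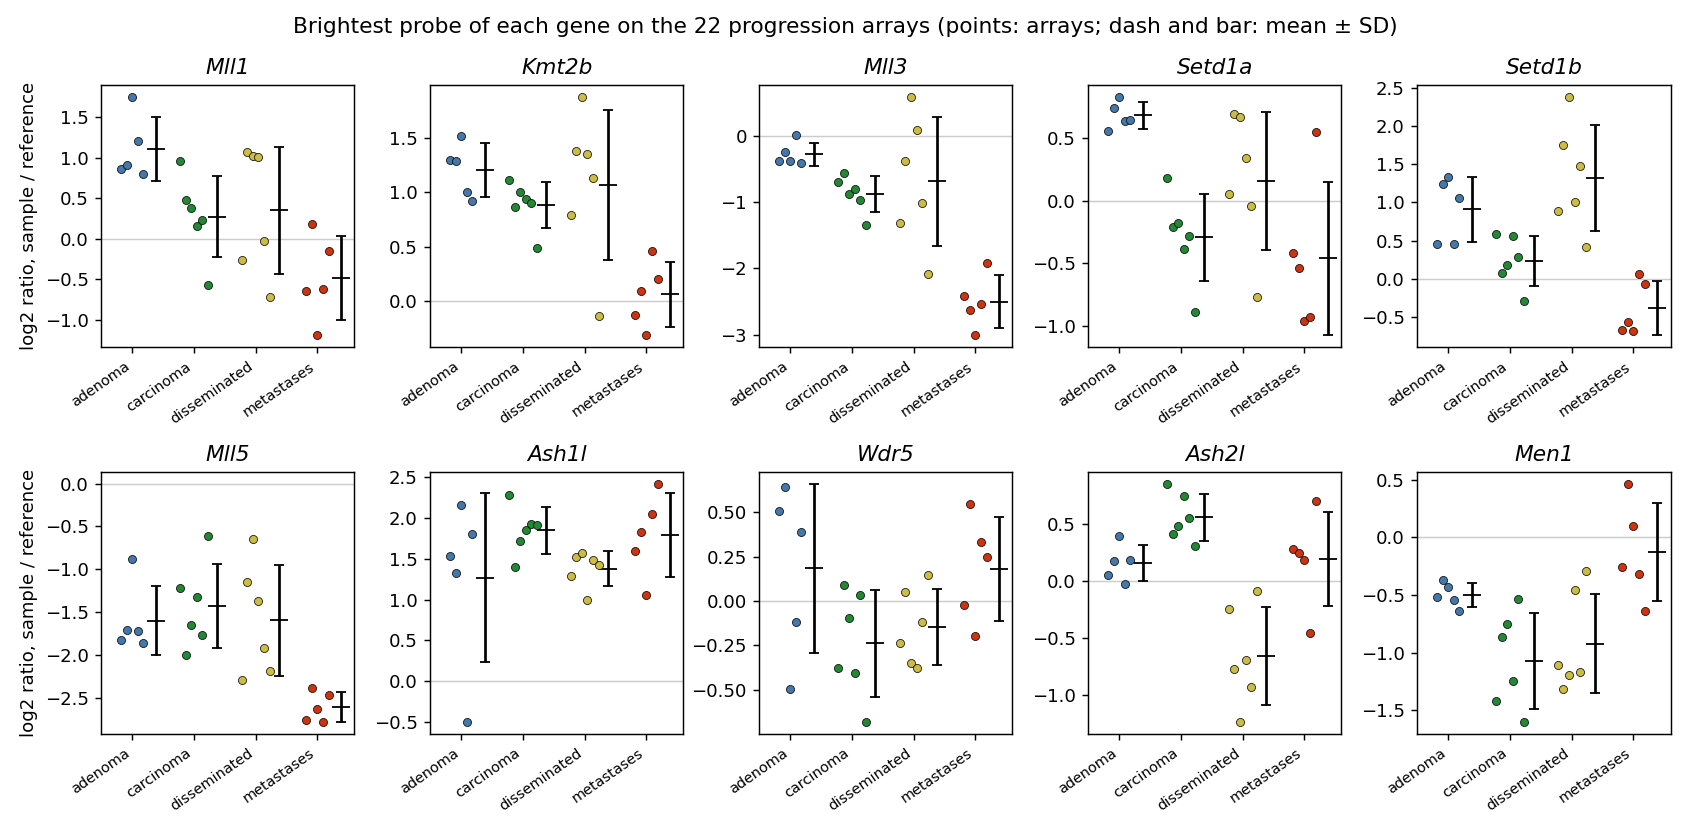
Log2 ratio of sample to reference (y axis) at the brightest probe of each of the 10 genes in the 4 progression groups (x axis). Each point is an array, and the dash and bar give the mean ± SD (5 adenomas, 6 carcinomas, 6 disseminated, 5 metastases). Metastases lie lowest for Mll1, Kmt2b, Mll3, Setd1a, Setd1b and Mll5, and disseminated cells lie lowest for Ash2l.

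Apart from the overlapping Setd1b pair, probes of the same gene often gave different changes, and the position along the gene differed from case to case. For Mll3, the probe with the 4.67-fold fall and the probe 78384.5 bases upstream of the last one (log2 change −1.28 ± 0.37, adjusted p = 0.0132) were lower in metastases than in adenomas. The 3′-most Mll3 probe, bright on every array, gave 0.23 ± 0.26 with a 95% interval of −0.31 to 0.77 (adjusted p = 0.552). It read −0.30, −0.45, −1.33, −0.82 and −0.81 in adenomas and 0.02, 0.03, −0.94, −0.80 and −0.87 in metastases, which overlap throughout. The other 3 Mll3 probes were well above background on at most 8 of the 22 progression arrays. For Mll5, the probe upstream of the brightest one gave −0.37 ± 0.30 (adjusted p = 0.4), and the 3′-most probe was well above background on 0 of all 38 arrays. For Kmt2b and Setd1a the order was the opposite, since the 3′-most probe fell and the upstream probes did not pass the test. The upstream Kmt2b probe gave −0.13 ± 0.12 with a mean log2 intensity of 7.88, against 11.7 at the 3′-most probe. Of the 2 upstream Setd1a probes, both named Nsccn1, the brighter was well above background on 19 of the 22 progression arrays and gave 0.55 ± 0.24 (adjusted p = 0.0971). The other was well above background on 7 of them and gave 0.09 (adjusted p = 0.679). For Ash1l, the 2 upstream probes fell, by −0.81 ± 0.19 (adjusted p = 0.00348) and −0.46 ± 0.14 (adjusted p = 0.02), but both were well above background on only 3 of the 5 adenomas.

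**Figure D2:**
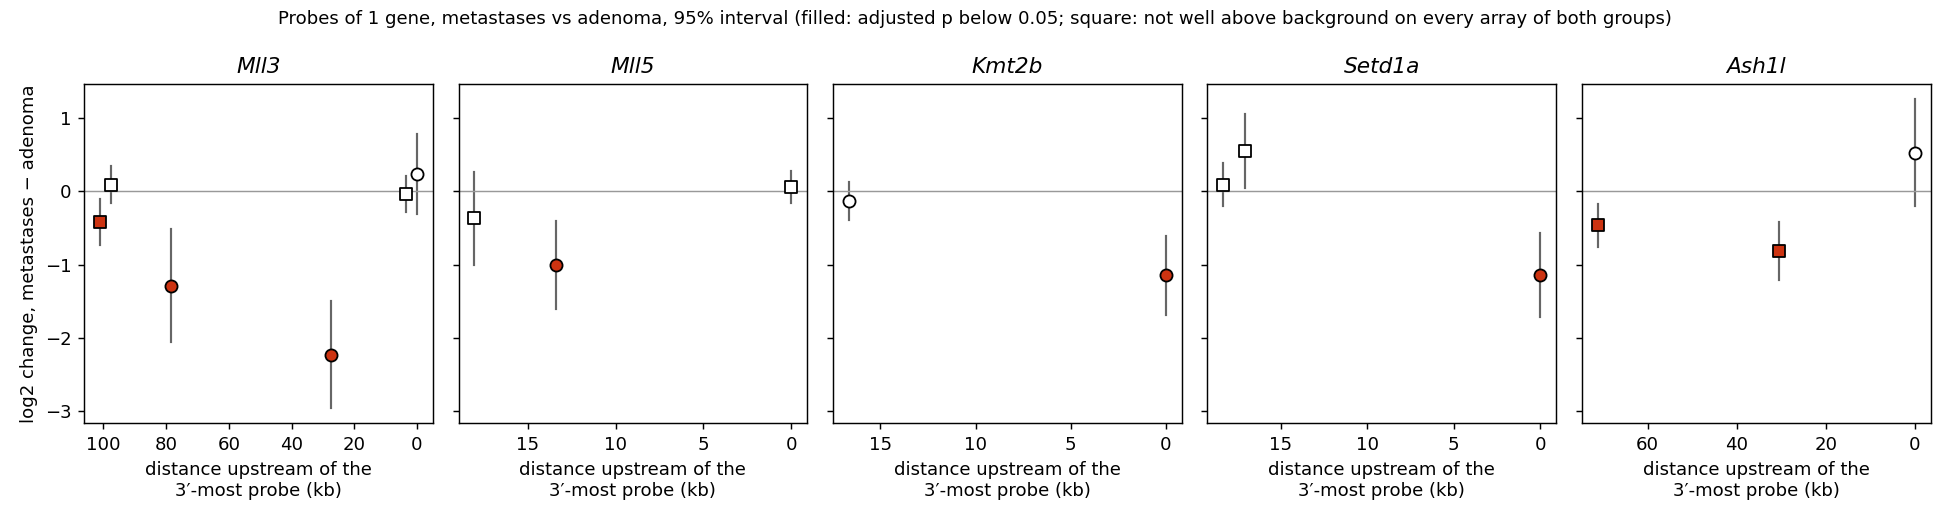
Log2 change from adenoma to metastases (y axis, with 95% interval) for every probe of Mll3, Mll5, Kmt2b, Setd1a and Ash1l against its distance upstream of the 3′-most probe of that gene (x axis, kb of genome, 3′ end at the right). Filled symbols passed the test, and squares were not well above background on every array of both groups. The 3′-most Mll3 probe lies at 0.23, whereas the probe 27499 bases upstream of it lies at −2.22.

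A measure of the balance between upstream and downstream probes moved with the progression groups. Over 1062 genes with a pair of well-measured probes at least 5000 bases apart, the median log2 ratio of the upstream probe minus that of the downstream probe lay between −0.21 and −0.03 in the 5 metastases, between 0.00008 and 0.42 in adenomas and between 0.07 and 0.23 in carcinomas. Disseminated replicates 1 and 6 were also below 0, at −0.09 and −0.19, and were the lowest of their group at the brightest Mll3 probe, at −1.31 and −2.09. In the chemotherapy experiment, over 1379 genes, the measure lay between −0.15 and −0.03 in untreated and between −0.19 and −0.08 in residual tumors. Relapsed tumors lay between −0.28 and −0.19, with a mean of −0.26 at the brightest Mll3 probe. The part of this measure in the probe differences was not tested.

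Against carcinomas, which shared slides with metastases, 3 of the 25 probes were lower in metastases and 1 was higher. Among all probes 12.1% were lower and 8.95% higher, so neither count exceeds the share over all probes. The lower ones were the brightest probes of 3 methyltransferase genes, and the higher one was that of Men1. The brightest Mll3 probe ranged from −1.34 to −0.56 in carcinomas with a median of −0.84, above all metastases (log2 change −1.63 ± 0.33, 3.09-fold, adjusted p = 0.00235). Mll5 ranged from −2.001 to −0.62 with a median of −1.49, also above all metastases (−1.18 ± 0.28, adjusted p = 0.00585). Kmt2b ranged from 0.49 to 1.12 with a median of 0.92 (−0.82 ± 0.25, adjusted p = 0.0221). On slides 6, 7 and 8 taken singly, the differences were −1.78, −1.70 and −1.47 for Mll3, −0.89, −1.34 and −1.19 for Mll5, and −0.96, −0.89 and −0.61 for Kmt2b. Slide 8 held 1 metastasis and 2 carcinomas, and the other slides 2 of each. With slide as a block the 3 changes were −1.67, −1.13 and −0.85. Other probes of these genes, well above background on every array of both groups, did not pass the test in limma. The 3′-most Mll3 probe gave 0.28 ± 0.25 (adjusted p = 0.486), and the one upstream of the brightest gave −0.32 ± 0.35 (adjusted p = 0.599). The upstream Mll5 probe gave 0.04 ± 0.29 (adjusted p = 0.959) and the upstream Kmt2b probe −0.29 ± 0.12 (adjusted p = 0.0958). Mll1 gave −0.76 ± 0.34 (adjusted p = 0.119), and its differences by slide were −0.98, −1.30 and 0.35. Setd1b gave −0.62 ± 0.28 (adjusted p = 0.129) and was lower on each of the 3 slides, by −0.70, −0.69 and −0.56. Setd1a differed by −0.17 ± 0.26, with a 95% interval of −0.71 to 0.38. Without carcinoma replicate 6, 6 member probes passed the test in place of 4, of which 5 were lower.

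**Figure D3:**
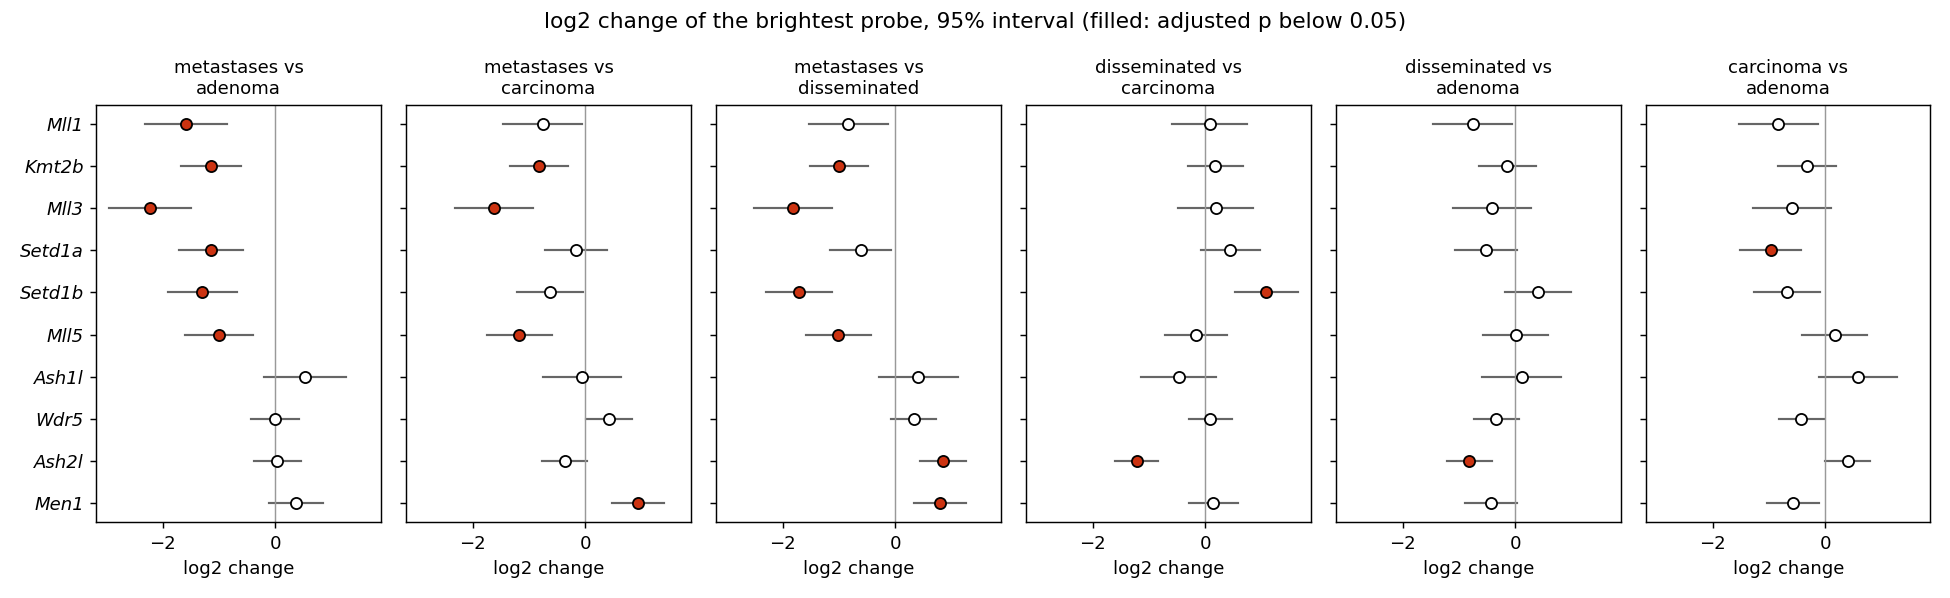
Log2 change (x axis, first group minus second) with its 95% interval at the brightest probe of each gene (y axis) in the 6 progression comparisons. Filled points passed the test. In the 3 comparisons with metastases the filled points of methyltransferase genes all lie below 0 and those of Ash2l and Men1 above 0.

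Between adenoma and carcinoma, 2 member probes passed the test and both were lower in carcinomas, beside 5.2% of all probes lower and 6.25% higher. Setd1a ranged from −0.88 to 0.18 in carcinomas with a median of −0.25, below all adenomas (log2 change −0.97 ± 0.26, 1.96-fold, adjusted p = 0.022). The middle Ash1l probe was the other (−0.85 ± 0.18, adjusted p = 0.00567). Mll1 gave −0.84 ± 0.34 (adjusted p = 0.112), Mll3 −0.59 ± 0.33 (adjusted p = 0.263) and Setd1b −0.67 ± 0.28 (adjusted p = 0.127). The carcinoma values of the brightest Mll3 probe also lay below all adenomas, as did those of the Mll3 probe upstream of it. That upstream probe gave −0.97 ± 0.35 here (adjusted p = 0.079) and −0.32 ± 0.35 between carcinoma and metastases. The brighter Nsccn1 probe of Setd1a gave 0.30 ± 0.23 (adjusted p = 0.433). By the test, the brightest Setd1a probe differed between adenoma and carcinoma and not detectably between carcinoma and metastases. The brightest Mll3, Mll5 and Kmt2b probes showed the reverse. The difference between these 2 steps was not tested.

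Metastases were lower than disseminated cells in 4 methyltransferase genes at their brightest probes, Mll3, Setd1b, Kmt2b and Mll5, and higher in Ash2l and Men1. Over the 25 probes, 5 were lower and 3 higher in metastases, beside 5.93% and 6.93% of all probes. Setd1b had the lowest adjusted p of the members. It ranged from 0.41 to 2.38 in disseminated cells with a median of 1.24, and all 6 values lay above all 5 metastases (log2 change −1.70 ± 0.28, 3.26-fold, adjusted p = 0.000876). Mll3 ranged from −2.09 to 0.59 with a median of −0.70, wider than in any other group, and disseminated replicate 6 fell within the range of metastases (−1.82 ± 0.33, adjusted p = 0.00181). Kmt2b ranged from −0.14 to 1.88 with a median of 1.24 (−1.01 ± 0.25, adjusted p = 0.0108). Replicate 6 was again the lowest and the only one within the range of metastases. Mll5 ranged from −2.29 to −0.65 with a median of −1.64 (−1.01 ± 0.28, adjusted p = 0.0211), with all values above those of metastases. No other probe of Mll3, Kmt2b or Mll5 passed. The 3′-most Mll3 probe gave −0.17 and the one upstream of the brightest −0.83. The upstream Kmt2b probe gave 0.02 and the upstream Mll5 probe −0.14. Without disseminated replicate 6, 12 probes passed the test in place of 8, of which 9 were lower in metastases. Without replicate 2 or without replicate 3, 5 passed. A fit to these groups alone left 3, and an equal-variance test without moderation left 0 after adjustment and 9 at an unadjusted p below 0.05.

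Against carcinomas, Setd1b was the methyltransferase gene that was higher in disseminated cells, at both probes (1.08 ± 0.27, adjusted p = 0.00637, and 0.98 ± 0.30, adjusted p = 0.0229). Its carcinoma values ranged from −0.29 to 0.59 with a median of 0.24 and overlapped only with the lowest disseminated sample. Ash2l was lower in disseminated cells, and an Mll5 probe that was not well above background on any array made up the rest of the 3 higher probes and 1 lower probe. Of all probes 9.46% were higher and 15.3% lower. Without disseminated replicate 3, 2 of these 4 probes passed. Against adenomas, on shared slides, 1 probe was higher and 2 were lower in disseminated cells, beside 7.58% and 10.6% of all probes, and the higher one was the same Mll5 probe. The lower ones were the brightest Ash2l probe and the middle Ash1l probe (−0.53 ± 0.18, adjusted p = 0.0483). Leaving out disseminated replicate 3, 4 or 5 or adenoma replicate 2 left 1 of the 3 past the test. Mll1 gave −0.75 ± 0.34 (adjusted p = 0.124) with 3 disseminated samples within the range of adenomas and the other 3 below 0.

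Wdr5, Ash2l and Men1 followed other patterns than the 6 methyltransferase genes that were lower in metastases. Dpy30, a core subunit outside the 10 genes, was itself lower in metastases than in adenomas, as given below. Wdr5, which binds the histone tail and anchors the complex, passed no test at either probe in any progression comparison. Its group means at the brightest probe were 0.19 ± 0.48 (SD, n = 5) in adenomas, −0.24 ± 0.30 (n = 6) in carcinomas, −0.15 ± 0.21 (n = 6) in disseminated cells and 0.18 ± 0.29 (n = 5) in metastases. Between metastases and adenomas the 95% interval of −0.43 to 0.42 leaves out changes as large as those of the 6 methyltransferase genes. Ash2l, the core subunit that stimulates catalysis, was lowest in disseminated cells, from −1.23 to −0.08 with a median of −0.73. These values lay below all carcinomas (0.30 to 0.85) and all adenomas (−0.03 to 0.39). The changes were −1.21 ± 0.18 against carcinomas (2.32-fold, adjusted p = 0.000194), −0.81 ± 0.19 against adenomas (adjusted p = 0.00718) and, from metastases to disseminated cells, a value 0.85 ± 0.19 lower (adjusted p = 0.00676). On slides 9, 10 and 11 taken singly, disseminated cells differed from adenomas by −0.18, −1.26 and −1.12. The second Ash2l probe, 10305 bases upstream, gave −0.19 ± 0.20 against carcinomas and −0.02 ± 0.21 against adenomas, and did not pass. It was 0.62 ± 0.22 higher in metastases than in adenomas (adjusted p = 0.0375) and 0.64 ± 0.21 higher than in disseminated cells (adjusted p = 0.0454).

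The mean level of Men1, the gene of menin, was highest in metastases. It read −0.25, 0.47, 0.10, −0.32 and −0.64 in metastases, from −1.60 to −0.53 in carcinomas with a median of −1.05, and from −1.31 to −0.30 in disseminated cells with a median of −1.14. The difference was 0.94 ± 0.22 against carcinomas (1.92-fold, adjusted p = 0.0057) and 0.79 ± 0.22 against disseminated cells (adjusted p = 0.0226), with some overlap in both. On slides 6, 7 and 8 metastases exceeded carcinomas by 0.78, 0.80 and 1.53. Against adenomas, which were tightly grouped from −0.64 to −0.37, the difference was 0.37 ± 0.23 (adjusted p = 0.253).

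In the order of group means, neighboring groups seldom differed beyond their spread. For Mll1 (adenoma, disseminated, carcinoma, metastases) and Setd1a (the same order) and for Setd1b (disseminated, adenoma, carcinoma, metastases), no pair of neighbors passed the test. For Mll3, Kmt2b and Mll5 the single step past the test was the last one, down to metastases. For Ash2l (carcinoma, metastases, adenoma, disseminated) it was the step from adenoma to disseminated cells. Over the 22 progression arrays, which share group structure, the brightest probes of Mll1, Mll3, Kmt2b, Setd1a and Setd1b had pairwise Spearman coefficients of 0.68 to 0.91, the highest between Mll1 and Mll3. Each of these 5 genes had coefficients with Wdr5, Ash2l and Men1 of 0.04 or below. The remaining methyltransferase genes differed from them. Mll5 had coefficients of 0.50 to 0.75 with the 5 genes, and Ash1l of −0.26 to −0.07 with them and of 0.58 with Ash2l. Among 14057 other genes well above background on at least 20 of these arrays, those most like Mll1 were Hdac7 (0.96), Banp (0.96) and Chd8 (0.95). Those most like Setd1a were Vezf1 (0.94), Appbp2 (0.93) and Hbp1 (0.93), and those most like Setd1b were Srsf4 (0.93), Nfatc3 (0.92) and Naif1 (0.92). The highest 0.1% of all coefficients began at 0.92, 0.88 and 0.90 for the 3 genes.

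Markers of other cells moved with the progression groups. The mean log2 ratio of 12 macrophage genes lay between −0.33 and 0.33 in adenomas, between −0.83 and 5.04 in carcinomas, between 3.56 and 5.52 in disseminated cells and between 0.92 and 5.83 in metastases. All 12 were well above background on every array of disseminated cells and metastases, and 10 of 12 on every adenoma and carcinoma array. Levels of 7 alveolar macrophage genes (3.76 to 5.37 in disseminated cells, 2.07 to 4.06 in metastases, at most 2.14 elsewhere) and 8 lung epithelial genes (1.91 to 3.73, 1.57 to 2.87 and at most 1.22) moved likewise. The 7 endothelial genes lay between 0.04 and 0.41 in adenomas, 0.33 and 1.33 in carcinomas, 1.24 and 2.84 in disseminated cells and 0.77 and 1.41 in metastases. The 8 fibroblast genes were lowest in metastases, between −4.57 and −2.74, against −2.84 to −1.22 in adenomas, −3.94 to −2.17 in carcinomas and −3.96 to −1.01 in disseminated cells. The 9 T and NK cell genes lay between 0.27 and 1.15 in adenomas, −0.51 and 0.64 in carcinomas, 0.40 and 2.04 in disseminated cells and −0.24 and 1.17 in metastases. The part of endothelial, fibroblast and lymphoid cells in the results was not tested. The 12 mammary epithelial genes, which mark the labelled tissue, were between 3.10 and 3.75 in adenomas, 2.40 and 4.10 in carcinomas, 0.37 and 3.59 in disseminated cells and 0.46 and 4.61 in metastases.

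Metastases replicates 2 and 5 had macrophage levels of 0.92 and 1.45 and mammary levels of 4.61 and 3.94. These macrophage levels lay above every adenoma and above 5 of the 6 carcinomas, which reached 0.44. The Mll3 values of the 2 metastases, −2.62 and −1.91, lay below every adenoma and carcinoma, as did their Mll5 values of −2.39 and −2.47. Their Mll1 values of 0.18 and −0.15 lay below every adenoma and within the range of carcinomas. Disseminated cells, with high macrophage levels in every sample, had the highest Setd1b mean. Carcinoma replicate 6 was the lowest carcinoma for Mll1, Mll3, Kmt2b, Setd1a and Setd1b, at −0.56, −1.34, 0.49, −0.88 and −0.29. Macrophage levels of adenomas and metastases did not overlap, and disseminated cells overlapped with primary tumors only through carcinoma replicate 6. A fit with this level as a covariate can therefore hardly separate it from group. A lower count in it cannot be told apart from lost precision. With the macrophage level as a covariate, 2 member probes passed the test between metastases and adenomas in place of 12. Mll3 kept a change of −1.82 (adjusted p = 0.0112). The values of the other 5 methyltransferase genes were −0.87 for Mll1, −1.12 for Mll5, −0.61 for Setd1a, −1.09 for Setd1b and −0.94 for Kmt2b, with adjusted p from 0.0636 to 0.214. Between metastases and carcinomas 2 passed in place of 4, and Mll3 was at −1.30 (adjusted p = 0.056). Between disseminated cells and either primary tumor group 0 passed. Against carcinomas Setd1b was then at 1.33 (adjusted p = 0.0744) and Ash2l at −0.88 (adjusted p = 0.0649), and against adenomas Ash2l was at −0.43 (adjusted p = 0.68). Between metastases and disseminated cells 9 passed in place of 8. With the covariate, the change of Mll5 against adenomas (−1.005 in the main fit) and that of Setd1b against carcinomas (1.08) were larger though no longer past the test. The other single-gene changes given for this fit were smaller than in the main fit.

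**Figure D4:**
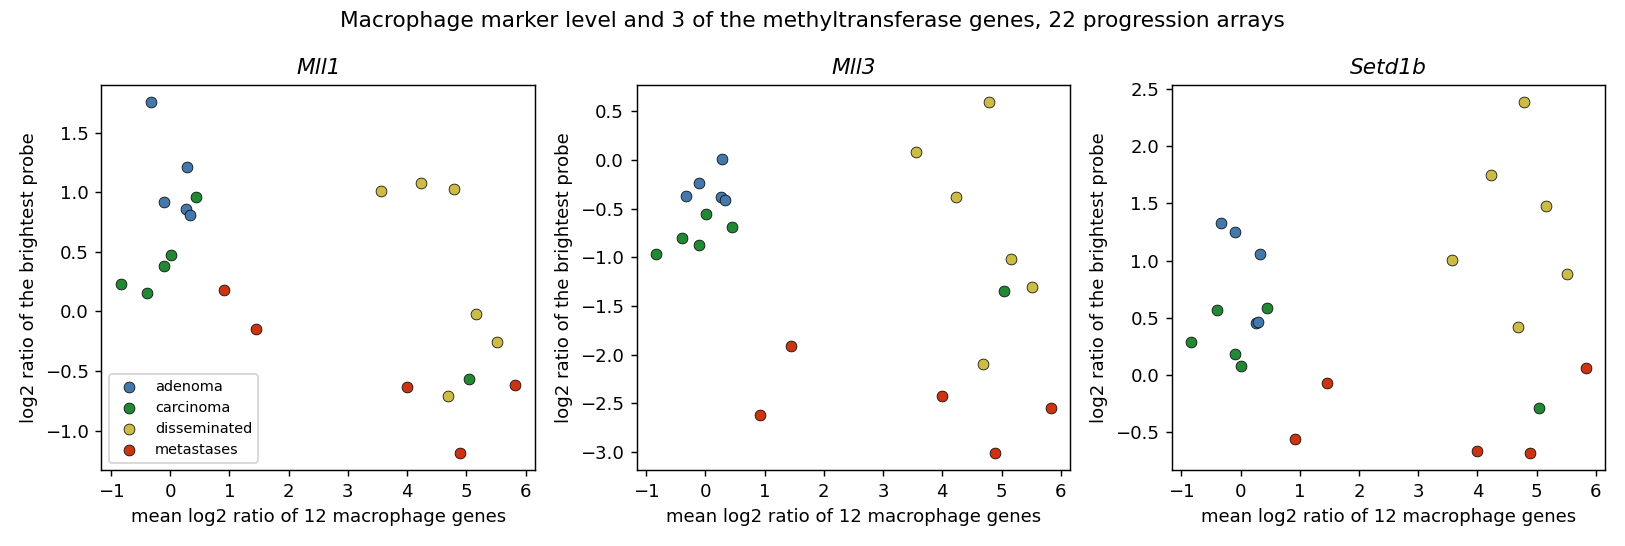
Log2 ratio of the brightest probe of Mll1, Mll3 and Setd1b (y axes) against the mean log2 ratio of 12 macrophage genes (x axis) on the 22 progression arrays, colored by group. For Mll3 the metastases lie between −3.01 and −1.91 at macrophage levels from 0.92 to 5.83, and for Setd1b the 3 highest values are those of disseminated cells.

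Other genes of the pathway also had lower probes in metastases than in adenomas, a comparison in which 14.4% of all probes were lower and 13.1% higher. Of 32 probes for 16 other COMPASS subunits and cofactors, 11 were lower and 4 higher, with a median log2 change of −0.28. The 3 genes with the largest changes were Ncoa6, a coactivator found in the Mll3 complex (−2.26 ± 0.39, adjusted p = 0.000314), Dpy30, a core subunit (−1.88 ± 0.27, adjusted p = 8.56e-05) and Ogt (1.39 ± 0.41, adjusted p = 0.016), the enzyme that adds N-acetylglucosamine to nuclear proteins. Of 13 probes for 6 genes of H3K4 demethylation, 5 were lower and 1 higher (median −0.33). The largest changes were those of Rcor1 (−3.45 ± 0.38, adjusted p = 7.17e-06), Kdm5b (−2.18 ± 0.37, adjusted p = 0.000363) and Kdm5c (−2.08 ± 0.23, adjusted p = 1.06e-05). Rcor1 is a partner of a demethylase and not a demethylase itself. Of 12 probes for 5 other H3K4 methyltransferase genes, 6 were lower and 1 higher (median −0.20), with Smyd2 at −2.003 ± 0.42 (adjusted p = 0.00153), Smyd3 at 1.01 ± 0.26 (adjusted p = 0.00635) and Smyd1 at −0.83 ± 0.16 (adjusted p = 0.000796). Of 19 probes for 12 target genes of Mll proteins and menin, 7 were lower and 2 higher (median −0.16). The named ones were Cdkn1b, a cyclin-dependent kinase inhibitor (−1.13 ± 0.38, adjusted p = 0.0311), Cdkn2c, another (−0.84 ± 0.24, adjusted p = 0.0125), and Tert (0.87 ± 0.21, adjusted p = 0.0039). Of 30 probes for 12 readers of methylated H3K4, 7 were lower and 5 higher (median −0.03), with Chd1 at −2.96 ± 0.35 (adjusted p = 1.41e-05), Phf13 at −1.38 ± 0.32 (adjusted p = 0.00324) and Spin1 at 1.22 ± 0.27 (adjusted p = 0.00276). Probes disagreed here too. The genes are named by their probe with the largest change, which for Ncoa6, Kdm5b, Smyd1, Smyd3, Cdkn1b, Chd1, Phf13 and Spin1 was not the brightest. A second Rcor1 probe was higher by 1.33 (adjusted p = 0.00914), and the brightest Chd1 probe was higher by 0.996 (adjusted p = 0.0052).

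In the remaining progression comparisons, counts are given for the COMPASS list throughout and for the other lists only in part. Each named gene is given by its probe with the largest change. Between metastases and carcinomas, where 8.95% of all probes were higher and 12.1% lower, the COMPASS list had 6 higher and 4 lower probes, with Dpy30 at −1.38, Tasp1 at 1.34 and Ogt at 1.14. The demethylation list had 2 higher and 5 lower, with Rcor1 at 1.90, Kdm5a at −1.24 and Kdm5b at −1.18. This Rcor1 value is that of a dimmer probe, and the brightest Rcor1 probe gave −1.30 (adjusted p = 0.0148). Between metastases and disseminated cells the COMPASS list had 3 higher and 7 lower, beside 6.93% and 5.93% of all probes, with Ncoa6 at −1.93, Kat8 at −1.14 and Ogt at −1.10. The Ogt probe here is not the one named against adenomas and carcinomas, which gave 0.53 (adjusted p = 0.427). The demethylation list had 1 higher and 4 lower, with Rcor1 at −2.07, Kdm5c at −1.82 and Kdm5b at −1.27. Between disseminated cells and carcinomas the COMPASS list had 5 higher and 6 lower, beside 9.46% and 15.3% of all probes, with Bod1 at −1.90, Ncoa6 at 1.56 and Rbbp5 at 1.15. Between disseminated cells and adenomas 0 were higher and 6 lower, beside 7.58% and 10.6%, with Bod1 at −1.37, Dpy30 at −1.31 and Hcfc1 at −0.78. Between carcinomas and adenomas 1 was higher and 5 lower, beside 6.25% and 5.2%, with Ncoa6 at −1.89, Tasp1 at −0.88 and Wdr82 at −0.85. The 2 Tasp1 values come from different probes, neither of them the brightest. The demethylation list had 4 lower probes and 0 higher in that comparison, with Rcor1 at −2.15 and Kdm5c and Kdm5a both at −1.02. Among the other H3K4 methyltransferases, Smyd3 was lower in disseminated cells than in carcinomas by −1.26 and than in adenomas by −0.88, and Smyd2 was lower than in adenomas by −2.07. A dimmer Smyd3 probe was higher in metastases than in carcinomas by 1.001 and than in disseminated cells by 1.19. Of the target genes, Pbx3, a homeobox cofactor, was higher in disseminated cells than in carcinomas by 1.57 and than in adenomas by 0.79. The reader list had 8 higher and 6 lower probes between metastases and carcinomas, and 2 higher and 3 lower between metastases and disseminated cells. Among the readers, Chd1 was lower in metastases than in carcinomas by −1.56 and than in disseminated cells by −2.08, at the probe that opposes the brightest one between metastases and adenomas. The values of named genes are log2 changes that passed the test in limma, apart from the Ogt value with an adjusted p of 0.427.

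No change of the 10 genes was detected in the chemotherapy experiment, in which few probes of the whole array passed the test. By limma, 0 of 25 probes passed the test between residual and untreated, between relapsed and untreated and between relapsed and residual tumors, where 0.17%, 0.00486% and 0.228% of all probes passed. At an unadjusted p below 0.05 there were 2, 1 and 2 probes, and the same comparisons by an equal-variance test without moderation gave 0 after adjustment and 1 each unadjusted. Log2 changes ran from −0.25 to 0.32, from −0.35 to 0.24 and from −0.46 to 0.28. Groups were largely on different slides, and each pair shared a single slide, in the same order slides 2, 5 and 4. On slide 2, with 2 residual tumors and 1 untreated tumor, the 2 Setd1b probes were 1.31 and 1.44 higher in residual tumors. The other member probes differed there by −0.46 to 0.58. Mll1 means were 0.11 ± 0.25 (SD, n = 6) in untreated, 0.16 ± 0.32 (n = 6) in residual and 0.11 ± 0.08 (n = 4) in relapsed tumors. The Mll3 probe that fell in metastases was at 0.09 ± 0.30, 0.04 ± 0.28 and −0.26 ± 0.28. Between relapsed and untreated tumors its 95% interval and those of the other brightest probes lay within −0.89 to 0.68. The smallest unadjusted p was that of Wdr5, which read 0.11 to 0.21 in the 4 relapsed tumors against −0.20 to 0.07 in untreated and −0.10 to 0.08 in residual tumors. Relapsed tumors lay above both groups without overlap at this probe, by 0.24 ± 0.06 (1.18-fold, adjusted p = 0.297) and 0.17 ± 0.06 (adjusted p = 0.534). The second Wdr5 probe, well above background on every array here, overlapped throughout. It read −0.09 to 0.49 in relapsed, −0.23 to 0.60 in untreated and −0.16 to 0.32 in residual tumors. The share of all probes without overlap was not computed. The 3′-most Mll3 probe gave 0.27 ± 0.10 between residual and untreated tumors (adjusted p = 0.427). Ash2l was lowest in residual tumors, from −0.55 to 0.08, with a difference of −0.25 ± 0.11 from untreated tumors (adjusted p = 0.537). In these tumors the macrophage level lay between −1.26 and 1.97 and the mammary epithelial level between 4.13 and 4.79.

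**Figure D5:**
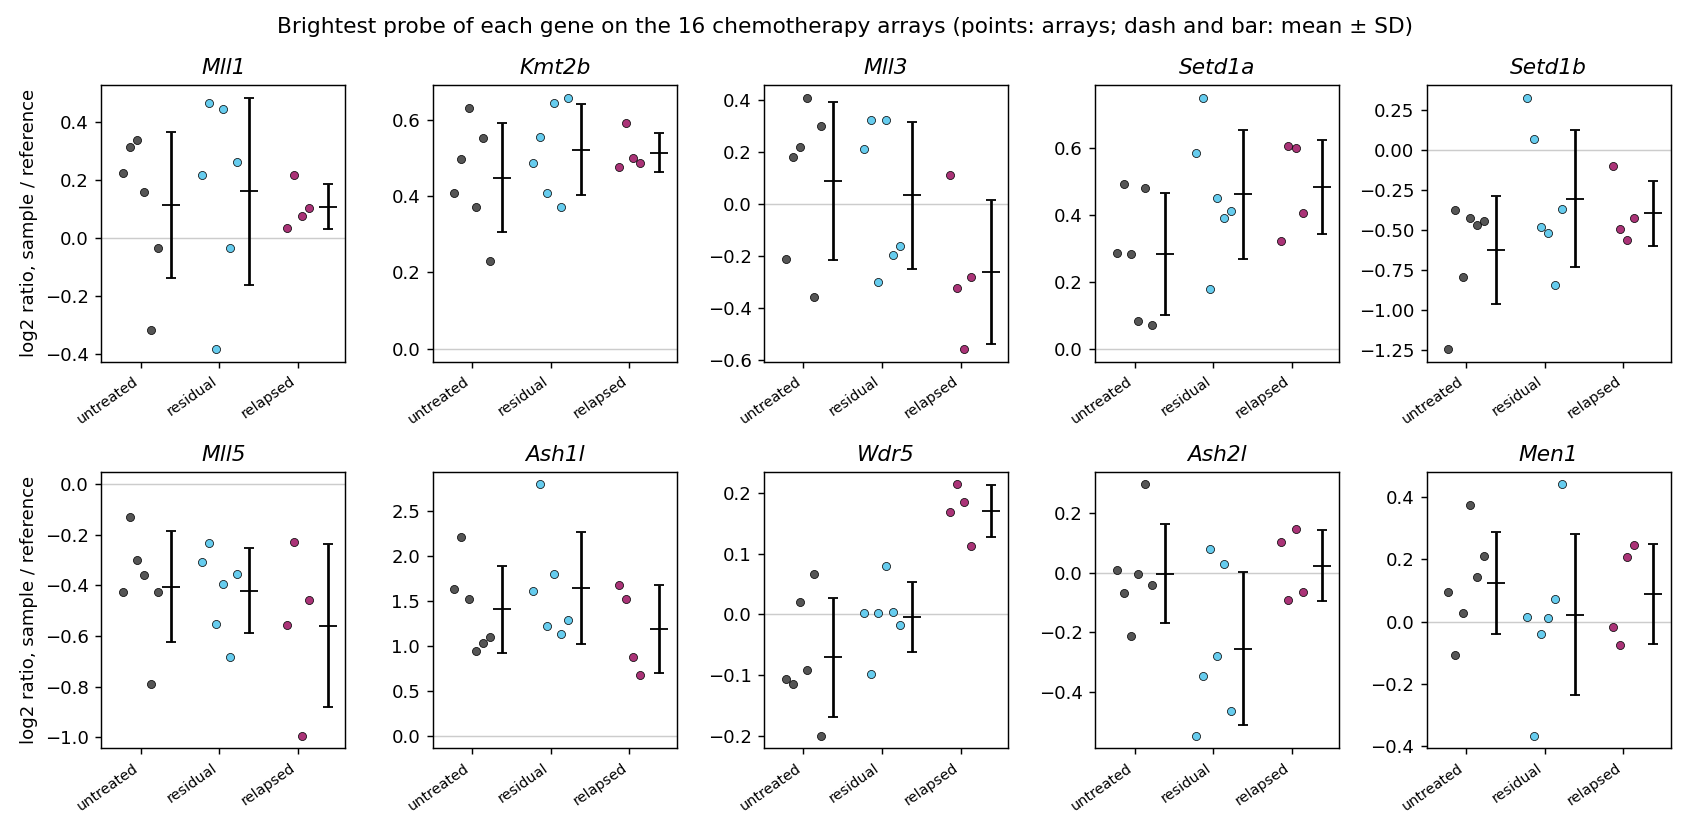
Log2 ratio of sample to reference (y axis) at the brightest probe of each gene in the 3 chemotherapy groups (x axis), with each array as a point and the mean ± SD as dash and bar (6 untreated, 6 residual, 4 relapsed). At these probes the groups overlap for 9 of the 10 genes, and the 4 relapsed tumors lie above the rest for Wdr5, between 0.11 and 0.21. The second Wdr5 probe, which overlaps between the groups, is not shown.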

How the data were processed

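RNA of GFP-sorted cells was hybridized on 38 two-colour Agilent arrays, 22 in the progression and 16 in the chemotherapy experiment, with the sample in Cy5, the reference in Cy3 and no dye swap. Per the file headers, the deposited intensity values were extracted by the authors with Agilent Feature Extraction 10.7. The authors also deposited normalized log2 ratios, used here as an alternative. From the mean and local background intensities, the sample and reference channels were background-corrected with normexp (offset 50), normalized by loess within arrays and by quantiles between arrays of an experiment, with control spots and nonuniformity outliers left out and spots of a probe averaged (limma 3.58.1, R 4.3.3, statmod 1.5.0). One spot of an Ash1l and one of a Setd1a probe were lost in this way, so that these probes had 5 carcinoma values.

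Groups came from the labels. Each experiment was fitted as a whole with 1 mean per group, by lmFit and eBayes, with Benjamini-Hochberg adjustment over 41174 probes. The labels do not say that every sample came from a separate animal, and p-values then measure the spread between samples only. The number of arrays limits the precision. No 2 arrays correlated above 0.974, and none was taken for a duplicate.

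Every probe of the 10 genes is named, led by the one with the highest mean intensity. From the other lists, the genes named in a comparison are among the 3 with the largest change past the test and measured on every array of a group. The members and lists were chosen with earlier results of these data known. Probes were named through RefSeq by accession (22973), by symbol or synonym (9749) or by the array's own name (8452). The fit was tested on simulated data. Alternatives covered background correction, normalization, spot and probe filters, blocks, covariates, thresholds and the omission of each array.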

Additional observations from a re-analysis of the deposited data

Results flagged for a closer look

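Of 70 sets of values, each a gene's brightest probe in a group of 4 to 6 arrays, 1 held a value far from the rest. Mll5 in adenoma replicate 3 was at −0.89, where the other 4 adenomas lay between −1.86 and −1.71, and the gap was 0.849 of the group's range. Chance flags about 1 in 20 sets. Without this array the difference in Mll5 between metastases and adenomas was −0.83 (adjusted p = 0.0465 in limma).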

How the results depend on the processing

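Of 274 recomputed counts of member probes past the test, 226 stayed within 1.5 times the main count. The other 48 are among the counts below, which also give the ranges with 1 array left out. Between metastases and adenomas (12), 1 probe per gene gave 6, an adjusted p below 0.01 gave 7, the macrophage covariate gave 2 and leaving out 1 array gave 9 to 12. Between metastases and disseminated cells (8), a fit to those groups alone gave 3, the stricter p gave 4, a 2-fold limit gave 5, unadjusted p-values gave 13, an equal-variance test without moderation gave 0 after adjustment and leaving out 1 array gave 5 to 12. Between disseminated cells and carcinomas (4), 1 probe per gene, the stricter p and the 2-fold limit gave 2 each, the macrophage covariate gave 0 and leaving out 1 array gave 2 to 5. Between metastases and carcinomas (4), the deposited log2 ratios gave 7, the fit to those groups alone gave 9, the 2-fold limit and the macrophage covariate gave 2 each, unadjusted p-values gave 10, the test without moderation gave 7 after adjustment and 11 unadjusted and leaving out 1 array gave 3 to 6. Between carcinomas and adenomas (2), median centring, 1 probe per gene and the stricter p gave 1 each, the fit to those groups alone gave 6, the 2-fold limit gave 0, unadjusted p-values gave 10, the test without moderation gave 5 and 11 and leaving out 1 array gave 2 throughout. Between disseminated cells and adenomas (3), 1 probe per gene, the fit to those groups alone, the stricter p and the test without moderation gave 1 each, the 2-fold limit and the macrophage covariate gave 0, unadjusted p-values gave 5 and leaving out 1 array gave 1 to 3. In the chemotherapy comparisons the count of 0 rose only with unadjusted p-values, to 2, 1 and 2 by limma and to 1 in each by the test without moderation. The cause of these shifts was not tested, apart from limits that count fewer or more probes by construction. Of 534 recomputed log2 changes of single genes past the test, 504 stayed past it, 30 did not and 0 changed sign. Without metastases replicate 4 the counts were 11, 4 and 8 against adenomas, carcinomas and disseminated cells. Leaving out carcinoma replicate 6 from comparisons without carcinomas, an alternative chosen after seeing the data, changed no count. Slide could be a fixed block only where the groups share slides. Signal over background limits 10 of the 25 probes, which were not well above background on every progression array.

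Replicate numbers did not pair the samples. Same-numbered arrays had correlations of their deviations from −0.39 to 0.29 in the progression experiment, with 8 of 31 above 0.1. With the number as a replicate block, 8 member probes passed the test between metastases and carcinomas in place of 4, and 11, 10, 4, 2 and 3 passed between metastases and adenomas, metastases and disseminated cells, disseminated cells and carcinomas, disseminated cells and adenomas, and carcinomas and adenomas. In the chemotherapy comparisons 0 passed.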
